A study of Mus musculus with 8 samples.

Results

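The T-cell receptor gamma and delta constant genes *Tcrg-C1*, *Tcrg-C2*, *Tcrg-C4* and *Trdc* were described in RNA-seq libraries of splenic CD8+ T cells. They are 4 of the 48321 gene symbols in the count tables. They were chosen by their measured CPM (counts scaled to library size) over both days and both genotypes, so their levels and changes are given as a description, with no test. All 4 passed the filter on low counts. The series holds 8 libraries of peripheral CD8+ T cells from the spleen of C57BL/6 mice, in 4 groups of 2: WT at day 0, KO at day 0, WT at day 5 and KO at day 5. Its design text names Satb1 F/F mice with *E8I-cre*, a recombinase transgene active in mature cells of the CD8 lineage, and states that cells were cultured in vitro. The labels give genotype only as WT or KO and do not say whether WT animals carried the floxed alleles or the transgene. The labels give no age, and the methods of the study describe young adult mice of mixed sex. The labels do not say whether the libraries of a group came from separate animals, so p-values measure only the spread between these libraries, which may be technical. The methods of the study describe stimulation by anti-CD3e and anti-CD28 antibodies followed by IL-2, with prolonged antibody stimulation as an exhaustion condition. Which of these the day 5 cells received is not stated. SATB1 is a nuclear DNA-binding protein that organises chromatin in T cells, and the comparisons ask how these receptor genes differ with genotype and with culture.

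A T-cell receptor is a pair of chains, alpha with beta in most T cells and gamma with delta in gamma delta T cells. Each chain is assembled by joining V, J and, for beta and delta, D segments, and the joined exon is spliced to a constant gene that encodes the membrane-proximal part of the chain. The mouse gamma locus consists of clusters that each hold their own V segments, J segment and constant gene, whereas *Trdc* and the delta segments lie inside the alpha locus and are removed when alpha segments join. CD8+ T cells with an alpha beta receptor keep their gamma genes in the genome. The IL-7 receptor and its effector STAT5 are known to promote transcription and opening of the gamma locus in developing lymphocytes.

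The exon sequences show how far reads could tell the gamma genes apart. In the annotation of GENCODE M21 (GRCm38, or mm10), *Tcrg-C1* lies at chr13:19214103-19217024 on the plus strand, *Tcrg-C2* at chr13:19304649-19307551 on the minus strand and *Tcrg-C4* at chr13:19344558-19352756 on the plus strand. *Trdc* lies at chr14:54142851-54148868 on the plus strand. The first exon of each gamma gene is 330 coding bases long, and that of *Tcrg-C1* was 97.3% identical to *Tcrg-C2* (9 bases differed) and 82.1% identical to *Tcrg-C4* (59 bases differed). The first 120 bases of these exons are shown because they show this likeness base by base, with capitals at the 15 positions where the letters of the 3 genes are not all alike. They lie at chr13:19214103-19214222 (plus), chr13:19307432-19307551 (minus) and chr13:19344558-19344677 (plus).
Tcrg-C1: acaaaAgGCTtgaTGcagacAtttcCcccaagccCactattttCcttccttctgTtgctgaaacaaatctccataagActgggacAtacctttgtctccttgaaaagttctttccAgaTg
Tcrg-C2: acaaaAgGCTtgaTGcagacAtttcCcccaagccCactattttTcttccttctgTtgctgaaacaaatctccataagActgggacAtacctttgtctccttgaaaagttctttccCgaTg
Tcrg-C4: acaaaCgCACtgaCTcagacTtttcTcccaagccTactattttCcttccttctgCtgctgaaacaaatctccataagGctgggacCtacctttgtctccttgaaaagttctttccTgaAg
Of these 15 positions, 2 separate *Tcrg-C1* from *Tcrg-C2*. The first bases of *Trdc* (chr14:54142851-54142970, plus) are given for contrast.
Trdc: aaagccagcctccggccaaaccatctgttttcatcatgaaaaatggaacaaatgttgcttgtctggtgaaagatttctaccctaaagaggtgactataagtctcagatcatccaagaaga

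The connecting exons, which encode the stretch between the constant domain and the membrane, separate the gamma genes by length. That of *Tcrg-C1* has 45 bases and that of *Tcrg-C2* has 30, while *Tcrg-C4* has a pair of 54 and 45 bases.
Tcrg-C1 exon 2: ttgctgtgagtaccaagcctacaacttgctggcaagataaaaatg
Tcrg-C2 exon 2: ttgctacaacttgctggcaagataaaaatg
Tcrg-C4 exon 2: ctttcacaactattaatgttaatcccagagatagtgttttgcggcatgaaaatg
Tcrg-C4 exon 3: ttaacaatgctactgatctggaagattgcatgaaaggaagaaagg
Reads were 50 bp long, and reads with more than 1 alignment were set aside by the counting program. Among all windows of 50 bases along each transcript, 65.8% were unique to *Tcrg-C1* and 74.6% to *Tcrg-C2* among GENCODE transcripts. The shared windows of both were shared with each other or with *Tcrg-C3*, a related constant gene. All windows of *Tcrg-C4* (936 of 936) were unique. So were 97.5% of those of *Trdc*, where an overlap with *Trdv5*, a delta V segment on the other strand, was not counted as sharing (158 windows). Levels of *Tcrg-C1* and *Tcrg-C2* therefore rest on a part of their reads. Of the 3865 bases of *Trdc*, 3403 are a noncoding last exon that *Trdv5* overlaps on the other strand, and the strand setting of the counting was not stated.

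The libraries held between 4170126 and 11117971 counts in genes, and replicate 1 of KO at day 0 was the deepest. *Satb1*, the targeted gene, went against the labels at day 0. It had 97.5 and 91.2 CPM in WT and 144 and 124 CPM in those labelled KO (log2 fold change 0.51, SE 0.15, FDR = 0.125 by the edgeR quasi-likelihood test adjusted over all genes). At day 5 it had 96.1 and 115 CPM in WT and 56.3 and 62.1 CPM in those labelled KO (log2 fold change -0.84, SE 0.15, edgeR FDR = 0.0162). Which exon of *Satb1* was deleted is not given in the labels, and its counts cover all exons. Directions between genotypes rest on the labels, and so do the culture comparisons within a genotype and the interaction, since each uses the day 0 labels. With these labels exchanged every difference between the genotypes at day 0 would turn its sign, and the values that other results would take are given beside some of them. Among CD8 T-cell markers *Cd8a* had between 780 and 1425 CPM as group means and *Cd8b1* between 1234 and 3846 CPM. Markers of other cells were mixed: *Cd4* had at most 7 counts in any library, *Ncr1* at most 4, *Lyz2* at most 15 and the B-cell marker *Ms4a1* at most 2, whereas *Cd40lg*, listed with CD4 T cells, reached 66 counts, the myeloid *Cd68* 372 and the B-cell *Cd79b* 1648.

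*Tcrg-C1* encodes the constant part of gamma chains from the cluster that holds *Tcrg-V4* to *Tcrg-V7*. It had 1.78 and 1.80 CPM in WT at day 0 (10 and 8 counts), and 5.04 and 7.31 CPM in the day 0 libraries labelled KO (59 and 40 counts). At day 5 it had 106 and 79.2 CPM in WT and 87.4 and 97.7 CPM in KO. Both day 5 groups were far above both day 0 groups, and the genotypes overlapped at day 5. In order of level, WT at day 0 was lowest (1.79 ± 0.0143 CPM, mean ± SD, n = 2), then KO at day 0 (6.18 ± 1.61), and then KO at day 5 (92.6 ± 7.28) and WT at day 5 (92.9 ± 19.3), which did not differ beyond their spread.

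*Tcrg-C2*, on the opposite strand of the locus, reached the highest level of the 4 genes. It had 3.03 and 3.15 CPM in WT at day 0 (17 and 14 counts) and 19.9 and 25.0 CPM in the day 0 libraries labelled KO. In culture it had 165 and 167 CPM in WT and 287 and 370 CPM in KO. No pair of groups overlapped, and the order was WT at day 0 (3.09 ± 0.0880), KO at day 0 (22.5 ± 3.63), WT at day 5 (166 ± 1.14) and KO at day 5 (328 ± 58.9).

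*Tcrg-C4*, the constant gene with the additional connecting exon, showed another order. It had 4.10 and 6.53 CPM in WT at day 0 (23 and 29 counts) and 52.6 and 50.1 CPM in the day 0 libraries labelled KO (615 and 274 counts). At day 5 it had 46.9 and 29.1 CPM in WT and 108 and 120 CPM in KO. WT at day 0 was lowest (5.32 ± 1.72) and KO at day 5 highest (114 ± 8.38). Between them, WT at day 5 (38.0 ± 12.6) and KO at day 0 (51.3 ± 1.74) did not overlap, but the gap between their nearest libraries was smaller than the spread of WT at day 5.

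*Trdc*, the only constant gene of the delta chain, was lower at day 5. It had 53.1 and 81.6 CPM in WT at day 0 (298 and 362 counts) and 80.6 and 77.0 CPM in the day 0 libraries labelled KO. At day 5 it had 27.2 and 45.1 CPM in WT and 29.3 and 21.3 CPM in KO. The genotypes overlapped on both days, and both day 5 groups were below both day 0 groups. Its group means were 67.3 ± 20.1 and 78.8 ± 2.56 CPM at day 0 and 36.2 ± 12.7 and 25.3 ± 5.66 CPM at day 5, in WT and KO. In bulk RNA, fewer cells that express a gene and less of its RNA per cell cannot be told apart.

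**Figure D1:**
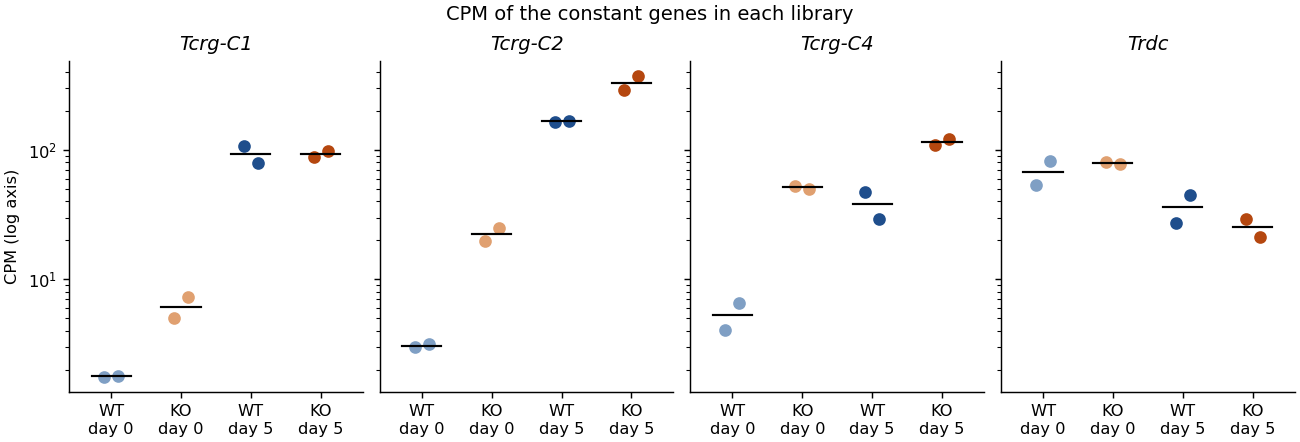
CPM of each constant gene (log axis) by group, with a point for each of the 2 libraries of a group and a line at their mean. The gamma genes are lowest in WT at day 0, where all are under 7 CPM, and *Trdc* is higher at day 0 than at day 5.

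KO against WT at day 0, the gamma genes were higher in the libraries labelled KO in the order of *Tcrg-C4*, *Tcrg-C2* and *Tcrg-C1*. The log2 fold change was 3.29 for *Tcrg-C4* (SE 0.27, 9.81-fold), 2.84 for *Tcrg-C2* (SE 0.24, 7.15-fold) and 1.72 for *Tcrg-C1* (SE 0.35, 3.30-fold). It was 0.23 for *Trdc* (SE 0.25). The groups did not overlap for the gamma genes and overlapped for *Trdc*, and the share of all genes without overlap was not computed. Of all 12597 genes tested, 1.8% were called at an FDR under 0.05 in this comparison, a share that cannot be read against genes chosen on the same values.

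At day 5, the genotype difference was smaller for each gamma gene. *Tcrg-C4* had a log2 fold change of 1.58 (SE 0.22, 2.98-fold) and *Tcrg-C2* one of 0.99 (SE 0.15, 1.98-fold), and neither overlapped between the groups. *Tcrg-C1* had -0.01 (SE 0.19), with a sign that turned under 5 of 16 alternatives (0.0086 to 0.23), and *Trdc* had -0.50 (SE 0.27). Over all genes 1.63% were called by FDR, which is not a share of genes without overlap. The interaction, the genotype difference of day 5 less that of day 0, was -1.73 for *Tcrg-C1* (SE 0.40), -1.85 for *Tcrg-C2* (SE 0.30) and -1.72 for *Tcrg-C4* (SE 0.36). These 3 values lay within an SE of each other. With the day 0 labels exchanged they would turn, to 1.71, 3.82 and 4.87. It was -0.73 for *Trdc* (SE 0.37), and 0.159% of all genes were called for the interaction.

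Day 5 against day 0, *Tcrg-C1* and *Tcrg-C2* were higher by about the same amount as each other within each genotype. In WT the log2 fold change was 5.68 for *Tcrg-C1* (SE 0.29, 51.4-fold) and 5.74 for *Tcrg-C2* (SE 0.23, 53.4-fold). In KO it was 3.95 (SE 0.23, 15.5-fold) and 3.88 (SE 0.17, 14.8-fold). This likeness rests on the day 0 labels: with WT and KO exchanged at day 0, a check added after the data were seen, the values would be 3.96 and 2.90 in WT and 5.67 and 6.72 in KO. *Tcrg-C4* differed less, with 2.87 in WT (SE 0.28, 7.31-fold) and 1.15 in KO (SE 0.21, 2.22-fold), and its direction in WT turned with the day 0 labels exchanged (-0.42, against 4.45 in KO). *Trdc* was lower at day 5, with -0.90 in WT (SE 0.26) and -1.64 in KO (SE 0.26). Groups did not overlap for any of the 4 genes in either genotype. The share of all genes without overlap was not computed, so this count has no background. By FDR, a different measure, 48.3% of all genes were called in WT and 50.2% in KO. The comparisons share libraries: each group enters a genotype comparison and a culture comparison.

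**Figure D2:**
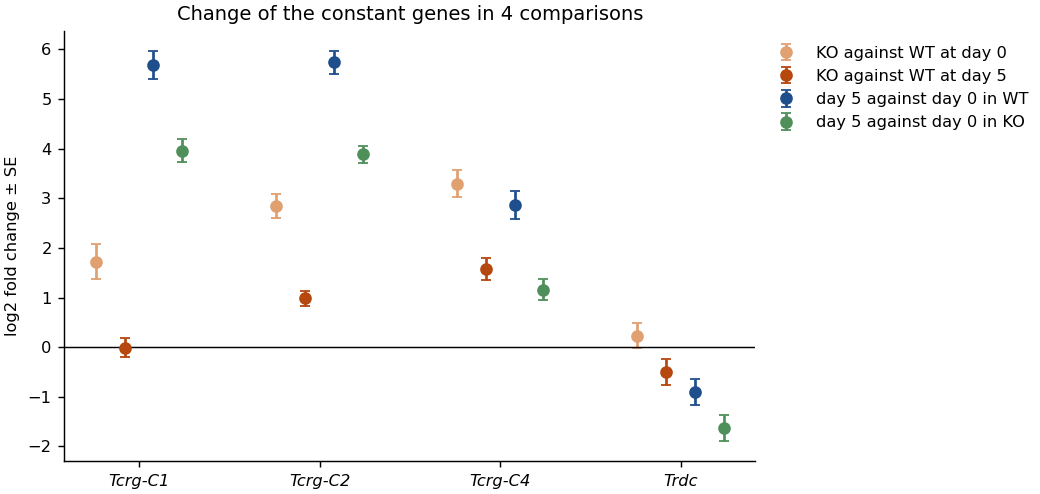
Log2 fold change of each constant gene in the 4 comparisons of groups, with bars for the SE of the edgeR fit. *Tcrg-C1* and *Tcrg-C2* have the highest values in the culture comparisons, *Tcrg-C4* is highest in KO against WT at day 0 (3.29), and *Trdc* lies below 0 except in KO against WT at day 0 (0.23).

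Per kilobase of exon, the order of the constant genes changed between groups. In WT at day 0 *Trdc* had the highest CPM per kilobase (17.4 ± 5.20), above *Tcrg-C4* (5.40 ± 1.75), *Tcrg-C2* (3.38 ± 0.0963) and *Tcrg-C1* (1.94 ± 0.0155). In the libraries labelled KO at day 0 *Tcrg-C4* was first (52.1 ± 1.77), above *Tcrg-C2* (24.6 ± 3.97) and *Trdc* (20.4 ± 0.663). In WT at day 5 *Tcrg-C2* was first (181 ± 1.25 per kilobase), above *Tcrg-C1* (100.5 ± 20.9) and *Tcrg-C4* (38.6 ± 12.8), and *Trdc* was last (9.36 ± 3.27). In KO at day 5 *Tcrg-C2* was first again (359 ± 64.4), and *Tcrg-C4* (116 ± 8.51) lay above *Tcrg-C1* (100.2 ± 7.88). That last order turned when levels were divided by the number of unique windows in place of the exon length, at 122 ± 8.96 for *Tcrg-C4* and 161 ± 12.6 for *Tcrg-C1*. All of these stayed below *Trac*, the constant gene of the alpha chain, which had 2620 ± 162 CPM per kilobase in WT at day 0 and 1821 ± 134 in WT at day 5. Summed per kilobase, the 3 gamma genes came to 0.408% ± 0.0458 of the *Trac* level in WT at day 0, 2.86% ± 0.0437 in KO at day 0, 17.7% ± 3.08 in WT at day 5 and 25.6% ± 2.92 in KO at day 5.

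Ratios within a library do not depend on the scaling of libraries, and they set *Tcrg-C4* apart from the other gamma genes. For each count of *Tcrg-C1* there were 2.30 and 3.63 counts of *Tcrg-C4* in WT at day 0 and 10.4 and 6.85 in KO at day 0. At day 5 there were 0.441 and 0.367 in WT and 1.24 and 1.23 in KO. *Tcrg-C2* counts per *Tcrg-C1* count were 1.70 and 1.75 in WT at day 0 and 1.55 and 2.1 in WT at day 5, against 3.95 and 3.43 in KO at day 0 and 3.28 and 3.79 in KO at day 5. With the groups as labelled, the ratio of *Tcrg-C2* to *Tcrg-C1* separated the genotypes on both days and overlapped between days within a genotype. With the day 0 labels exchanged its direction at day 0 would turn and the days would not overlap within a genotype. In either case the ratio of *Tcrg-C4* to *Tcrg-C1* separated all 4 groups of libraries.

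As a share of the summed gamma constant counts, *Tcrg-C4* made up 46% and 56.9% in WT at day 0, out of only 50 and 51 counts (95% Wilson intervals 33.0 to 59.6% and 43.3 to 69.5%, which cover counting error only). It made up 67.8% (64.7 to 70.8%) and 60.8% (56.2 to 65.2%) in the day 0 libraries labelled KO. In WT at day 5 it made up 14.7% (13.2 to 16.4%) and 10.6% (8.92 to 12.5%), and in KO at day 5 22.5% (20.9 to 24.1%) and 20.4% (19.1 to 21.9%). *Tcrg-C2* was the largest part in all 4 day 5 libraries, between 51.8% and 62.9%. At day 0 the interval of WT replicate 2 overlapped those of both KO libraries and that of WT replicate 1 overlapped KO replicate 2, while both WT shares lay below both KO shares. The difference in this share was not tested.

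**Figure D3:**
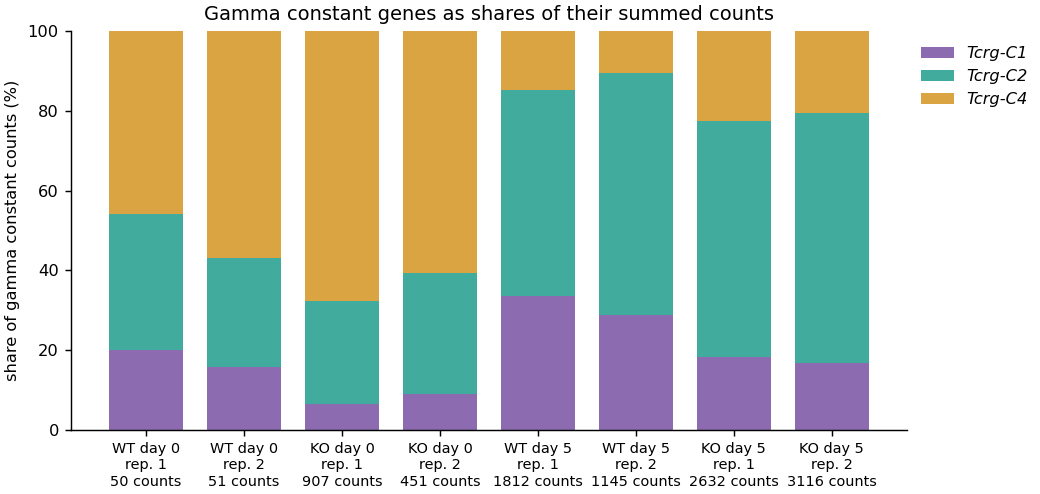
Counts of *Tcrg-C1*, *Tcrg-C2* and *Tcrg-C4* as stacked shares (%) of their sum in each library, with the summed count under each bar. In counts *Tcrg-C4* is the largest part in the 4 day 0 libraries and *Tcrg-C2* in the 4 day 5 libraries, and per unique window *Tcrg-C2* (38.6%) exceeds *Tcrg-C4* (36.0%) in WT replicate 1 of day 0.

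The J segments, whose joined copies are spliced to the constant gene of their own cluster, are shown because they are another stretch of the same transcripts. *Trgj1* (chr13:19210343-19210402, plus) lies 3700 bases before *Tcrg-C1*, *Trgj2* (chr13:19311245-19311304, minus) lies 3693 bases before *Tcrg-C2*, and *Trgj4* (chr13:19342152-19342212, plus) lies 2345 bases before *Tcrg-C4*.
Trgj1: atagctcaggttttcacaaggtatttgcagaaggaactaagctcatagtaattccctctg
Trgj2: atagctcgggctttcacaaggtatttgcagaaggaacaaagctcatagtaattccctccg
Trgj4: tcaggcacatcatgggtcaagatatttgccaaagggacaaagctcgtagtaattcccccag
*Trgj1* and *Trgj2* were identical at 56 of 60 bases. *Trgj1* had no count in either WT library at day 0, 4 and 2 counts in KO at day 0, 46 and 36 in WT at day 5 and 40 and 39 in KO at day 5. *Trgj2* had no count in WT at day 0, 12 and 4 counts in KO at day 0, 43 and 31 in WT at day 5 and 71 and 94 in KO at day 5. Against a floor of 3 counts per library, WT at day 5 was at least 13.8-fold higher for *Trgj1* and at least 12.4-fold higher for *Trgj2*. Both passed the filter on low counts through day 5 alone, so these folds are a description and no call with culture is drawn from them. *Trgj4* had 3 counts in each WT library at day 0, 33 and 17 in KO at day 0, 13 and 5 in WT at day 5 and 31 and 33 in KO at day 5. In CPM the groups of each J segment thus followed the order of its own constant gene, including the smaller difference of *Trgj4* with culture. They lie on the same transcripts as the constant genes and are not a separate measurement of the change.

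The V segments differed between the clusters. *Trgv2* (chr13:19336573-19337167, minus) lies on the strand of *Tcrg-C2*, 25268 bases before *Trgj2*. It had 7 and 8 counts in WT at day 0, 100 and 69 in KO at day 0, 336 and 292 in WT at day 5 and 615 and 854 in KO at day 5. For every 100 counts of *Tcrg-C2* there were between 35.8 and 57.1 counts of *Trgv2* in all 8 libraries, so this ratio stayed in a narrow range while the counts of both genes spanned a wide one. The V segments of the *Tcrg-C1* cluster differed from this. *Tcrg-V4*, *Tcrg-V5*, *Tcrg-V6* and *Tcrg-V7* together had 2 and 6 counts in WT at day 0, 42 and 7 in KO at day 0, 5 and 2 in WT at day 5 and 12 and 18 in KO at day 5. Per 100 counts of *Tcrg-C1* this was 20 and 75 in WT at day 0 and 71.2 and 17.5 in KO at day 0, but 0.825 and 0.606 in WT at day 5 and 2.52 and 3.47 in KO at day 5. Of their 50-base windows, between 98.1% and 100% were unique in each of these 4 segments, against 93.0% in *Trgv2*. *Tcrg-V4* had 22 and *Tcrg-V6* 15 counts in replicate 1 of KO at day 0, and neither passed 10 counts in any other library. *Tcrg-V3*, which precedes *Tcrg-C3*, had 10 and 9 counts in KO at day 5 and at most 1 elsewhere. A V segment of the *Tcrg-C4* cluster was not analysed here.

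**Figure D4:**
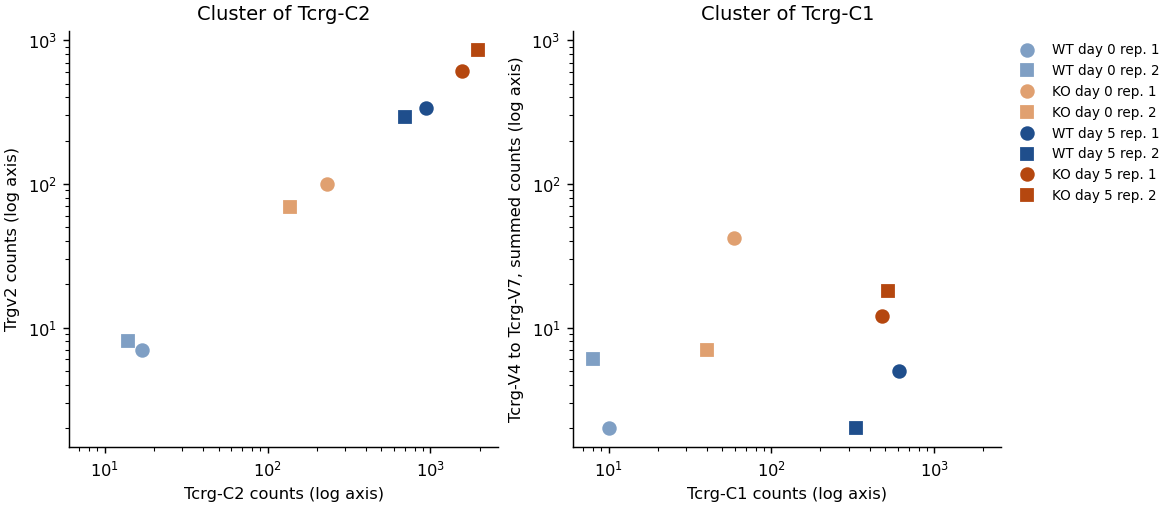
Counts of V segments against counts of the constant gene of their cluster in the 8 libraries (both axes log), *Trgv2* against *Tcrg-C2* on the left and the sum of *Tcrg-V4* to *Tcrg-V7* against *Tcrg-C1* on the right. The points on the left lie along a line, and the day 5 points on the right lie at 18 V counts or fewer, although *Tcrg-C1* had 330 counts or more.

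Delta segments accompanied the lower *Trdc* of day 5 in part. *Trdv2-2*, the delta V segment with the most counts at day 0, had 11.2 and 8.79 CPM in WT at day 0, 10.9 and 10.1 in KO at day 0, 2.81 and 3.12 in WT at day 5 and 3.67 and 1.32 in KO at day 5. The days did not overlap, and the genotypes overlapped on both days. *Trdj1*, a delta J segment, had between 3 and 13 counts at day 0 and at most 2 at day 5. *Trdv1* did not follow, at 2.67 and 2.48 CPM in WT at day 0, 5.30 and 3.84 in KO at day 0, 2.28 and 5.52 in WT at day 5 and 4.77 and 4.34 in KO at day 5. *Trdv5*, which overlaps *Trdc*, stayed between 3 and 19 counts. Of the windows of *Trdv2-2*, 47.4% were unique, so its level is uncertain.

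*Tcrg-C3*, the remaining gamma constant gene, was not among the chosen genes. It had at most 1 count in any day 0 library, 11 and 7 counts in WT at day 5 and 23 and 38 in KO at day 5. It passed the filter on low counts through day 5 alone, so no call with culture is drawn from it, and with so few counts its fold change is not given.

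The alpha and beta constant genes and the CD3 chains, which every alpha beta T cell uses, were tested beside these values. *Trac*, *Trbc1* and *Trbc2* were not called between the genotypes on either day (log2 fold change between -0.10 and 0.30, lowest edgeR FDR 0.206), and all 3 fell with culture in both genotypes. In WT *Trac* fell by 0.52 on the log2 scale (SE 0.11, edgeR FDR = 0.00142) and *Trbc1* and *Trbc2* each fell by 0.69. In KO *Trac* fell by 0.38 (SE 0.11, edgeR FDR = 0.0103), *Trbc1* by 0.62 and *Trbc2* by 0.63. Over all genes tested 23.6% fell in WT and 24.0% in KO, and the median was -0.04 and -0.05. Of the 4 CD3 chains, *Cd3e* and *Cd247* fell with culture in both genotypes, *Cd3e* by 0.91 in WT and by 0.70 in KO. *Cd3d* and *Cd3g* were not called, at 0.02 and -0.14 in WT. For every 100 counts of *Trac* there were 2.27 and 3.19 counts of *Trdc* in WT at day 0, 3.10 and 2.71 in KO at day 0, 1.69 and 2.52 in WT at day 5 and 1.43 and 0.998 in KO at day 5, so the days overlapped in WT and not in KO on this ratio, and would overlap in neither with the day 0 labels exchanged.

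Regulators known to act on the gamma locus mostly fell with culture, while *Tcrg-C1*, *Tcrg-C2* and *Tcrg-C4* were higher. Of the 20 listed, 12 fell and 2 rose in WT, with a median of -0.77, and 14 fell and 1 rose in KO, with a median of -0.99. Over all genes tested 23.6% fell and 24.7% rose in WT, and 24.0% fell and 26.2% rose in KO. *Il7r*, the alpha chain of the IL-7 receptor, had 992 CPM as the mean of WT at day 0 and 23.9 at day 5, and fell by 5.39 on the log2 scale (SE 0.19, edgeR FDR = 4.59e-10). In KO it went from 1370 to 52.1 CPM and fell by 4.72 (SE 0.18, edgeR FDR = 6.11e-10). *Stat5a* and *Stat5b*, which encode the STAT5 proteins, fell by 1.32 and 0.97 in WT and by 0.92 and 0.68 in KO. *Tcf7* and *Lef1*, transcription factors of naive T cells, fell by 2.44 and 2.30 in WT and by 2.14 and 2.56 in KO. *Ikzf1* fell by 1.47 in WT and by 1.17 in KO. *Id2*, an inhibitor of E proteins, rose in both (1.2 in WT and 1.81 in KO), and its relative *Id3* fell by 0.86 and 1.66. *Runx1* and *Runx3* were not called in either genotype.

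Between the genotypes few regulators were called. At day 0 *Id3* was higher in the libraries labelled KO (0.63, SE 0.13, edgeR FDR = 0.0318), 1 of 20. At day 5 *Il7r* was higher in KO (1.14, SE 0.18, edgeR FDR = 0.00909), again 1 of 20, and at day 0 its log2 fold change was 0.47 and it was not called. Over all genes 1.8% were called at day 0 and 1.63% at day 5, so a single call among 20 genes sets the list little apart from them. The medians of the list were 0.07 at day 0 and 0.10 at day 5, beside -0.0017 and 0 over all genes.

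**Figure D5:**
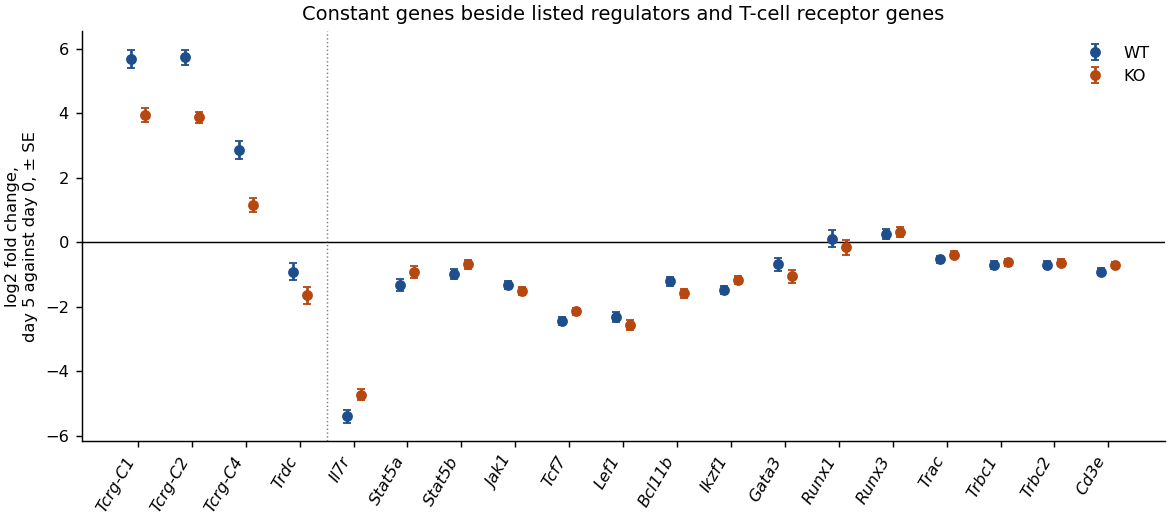
Log2 fold change of day 5 against day 0 in WT and KO, with bars for the SE of the edgeR fit, for the 4 constant genes (left of the dotted line) and for listed regulators, alpha and beta constant genes and *Cd3e*. *Il7r* has the lowest value plotted (-5.39 in WT), while *Tcrg-C1* and *Tcrg-C2* lie above 3.8 in both genotypes.

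Of 10 tested genes of innate-like and memory CD8 T cells, 2 were higher and 1 was lower than in WT at day 0, and 7 were not called. Over all genes 1.8% were called in this comparison. *Ccl5*, a chemokine, had 13.5 CPM as the mean of WT and 95.3 in KO (log2 fold change 2.78, SE 0.41, edgeR FDR = 0.0040). *Il2rb*, a chain of the IL-2 and IL-15 receptors, was higher by 1.10 (SE 0.14, edgeR FDR = 0.00116) and *Klrd1*, which encodes the receptor chain CD94, fell by 1.69 (SE 0.14, edgeR FDR = 4.27e-05). At day 5 *Il2rb* was still higher (0.81, SE 0.13, edgeR FDR = 0.00989) and *Klrd1* lower (-0.91, SE 0.14, edgeR FDR = 0.00681), while *Ccl5* was no longer called (1.16, SE 0.34, edgeR FDR = 0.122). With culture, 8 of 10 rose in each genotype, where 24.7% of all genes rose in WT and 26.2% in KO, among them *Cd44* (3.52 in WT and 3.82 in KO), *Cxcr3* (2.50 and 1.53) and *Eomes* (2.07 and 1.46). *Klrd1* fell by 0.57 in WT and was not called in KO (0.21), and with the day 0 labels exchanged these would be 1.12 and -1.48. *Xcl1* passed the filter on low counts through day 0 alone, with 48 and 23 counts in KO at day 0 and 4 and 3 at day 5. *Tbx21*, 1 of the 8, passed through day 5 alone, with 2 and 1 counts in WT at day 0 and 17 and 12 at day 5. These calls at day 0 depended on the WT libraries: without replicate 1 of WT at day 0, 1 of the listed genes was called in place of 5, and without replicate 2, 3 were, where the 5 include *Trgv2*. At day 5 they depended on KO: without replicate 1 of KO 2 were called and without replicate 2 the count was 0.

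Markers of gamma delta T cells were low throughout. Of 16 listed, 3 were tested. *Sox13* had at most 7 counts and none at day 5, *Zbtb16* at most 6, *Il17a* at most 1 and *Blk* at most 7 in any library. Their summed level was 22.8 to 25.5 CPM in WT at day 0, 31.0 to 38.2 in KO at day 0, 8.79 to 9.12 in WT at day 5 and 10.6 in both libraries of KO at day 5, and most of it at day 0 was *Sox4*, which had 16.9 CPM as the mean of WT and 25.7 in KO. *Sox4* had a log2 fold change of -3.11 in WT and -3.92 in KO with culture, and 5830411N06Rik had 24 and 15 counts in WT and 12 and 10 in KO at day 0 (4.28 and 3.38 CPM against 1.03 and 1.83) and at most 3 counts at day 5. *Maf* had 2 and 3 counts at day 0 and 31 and 13 at day 5 in WT, and 11 and 9 and then 27 and 23 in KO. All 3 passed the filter on low counts through a single day, *Maf* through day 5 and the others through day 0, so their difference with culture is a description. Between the genotypes none of these 3 was called (lowest edgeR FDR 0.270). The higher sum in KO at day 0 was carried by *Sox4*, while 5830411N06Rik was lower there, and at day 5 *Sox4* had 1.99 CPM in WT and 1.67 in KO. The part of these cells in the results was not tested.

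Markers of other cells ranged from near 0 to above the gamma genes at day 0. The 6 NK-cell markers summed to between 1.11 and 5.10 CPM in a library, and *Klra8* was at 0 in all. Of these only *Klre1* was tested, which passed through day 5 alone and had at most 3 counts at day 0 and between 4 and 19 at day 5. The 5 B-cell markers summed to 121 to 166 CPM at day 0 and 67.1 to 84.0 CPM at day 5, nearly all of it *Cd79b*, which fell by 0.83 in WT and by 0.90 in KO. *Cd40lg*, listed with CD4 T cells, had 9 and 5 counts in WT and 66 and 21 in KO at day 0 and at most 4 in any library at day 5, and passed through day 0 alone. The 6 myeloid markers summed to 10.9 to 19.2 CPM at day 0 and 34.1 to 71.8 CPM at day 5, when most of it was *Cd68*, a lysosomal protein, which rose by 3.53 in WT and by 4.09 in KO, while *Csf1r* fell by 1.19 and 1.18. Among the 5 CD8 T-cell markers, *Cd8a* alone was called between the genotypes, higher in KO at day 5 (0.60, SE 0.11, edgeR FDR = 0.0155). The share called over all genes was 1.8% at day 0 and 1.63% at day 5. The part of these cells in the levels of the constant genes was not tested.

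Genes with the most similar profile were found by Pearson correlation of log2 CPM over the 8 libraries, which fall into 2 days that account for much of each r, and are given without a test. For *Tcrg-C2* the most similar gene of all was *Trgv2* (r = 0.998), followed by *Tet2*, *Anxa2*, *Anxa4* and *Serpina3g* (r from 0.991 to 0.995). For *Tcrg-C1* they were *Plxnc1*, *Ppp1r7*, *Nsl1*, *Crem* and *Tmco3* (0.995 to 0.998). For *Tcrg-C4* they were *Apip*, *Ssbp2*, *Il10ra*, *Maged1* and *Rttn* (0.963 to 0.982), and for *Trdc* they were *Urb1*, *Dock11*, *Dennd6a*, *Rtn4rl1* and *Pik3ca* (0.976 to 0.988). *Il10ra*, a chain of the IL-10 receptor, shared the order of *Tcrg-C4* over the groups, with 12.6 CPM in WT and 54.3 in KO at day 0 and 37.8 in WT and 101 in KO at day 5. *Anxa2*, a membrane-binding annexin, had 34.9, 249.7, 2530 and 3939 CPM in that order of groups.

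After subtraction of the mean of each day, so that the culture difference did not enter, the nearest genes changed. For *Tcrg-C2* they were *Il2*, *Prr13*, *Trgv2*, *Anxa4* and *Mprip* (r from 0.985 to 0.992). For *Tcrg-C4* they were *Axin2*, *Btg2*, *Csrp2bp*, *Apip* and *Slc2a3* (0.980 to 0.998), where *Axin2*, a target of Wnt signalling, had 4.93 CPM in WT and 12.1 in KO at day 0 and 1.39 in WT and 2.33 in KO at day 5. For *Tcrg-C1* they were *Plxnc1*, *Itgav*, *Sv2c*, *Gabarapl1* and *Tet2* (0.965 to 0.984), and for *Trdc* *Cep83*, *Cfl2*, *Urb1*, *Akap5* and *Aqp11* (0.939 to 0.971). Among the members, *Tcrg-C2* and *Tcrg-C4* had r = 0.972 on this measure, *Tcrg-C1* and *Tcrg-C2* 0.916 and *Tcrg-C1* and *Tcrg-C4* 0.865, whereas *Trdc* had between -0.01 and 0.13 with each gamma gene. Over all 8 libraries without the subtraction, *Trdc* had r between -0.85 and -0.54 with them.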

How the data were processed

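RNA of the 8 libraries was sequenced from Trizol-extracted RNA with an NEBNext Ultra kit (per the labels; the methods of the study name purified mRNA as input). The authors deposited raw counts per gene symbol for each library. Per the submitters' processing notes these came from HISAT2 2.1.0 and HTSeq 0.11.1 on mm10, where the methods of the study name another minor version of HTSeq. The annotation and strand setting of counting are not given in the sources used here. Summary lines of the counting program (no feature, ambiguous, not unique) were left out of totals. Assigned reads made up 21.2 to 24.5% of records and reads aligned to more than 1 place 31.8 to 37.4%.

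Counts were tested in R 4.3.3 with edgeR 4.0.16, by the quasi-likelihood F-test (legacy form) in a single fit of all 8 libraries with a mean per group, TMM scaling and the default filter (minimum count 10), which left 12597 of 48321 genes. Two-sided p-values were adjusted over these genes (Benjamini-Hochberg), and genes with an FDR under 0.05 were called. CPM used the TMM-scaled total, and log2 CPM for profiles used a prior count of 0.5. The script was tested on simulated data. A count of 3 was taken as the floor. Intervals and floors cover counting error only, as reads carried no molecular identifiers.

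The 4 members and the 14 lists were chosen with earlier results of these data known, so they are no independent support. Besides the 95 listed genes in the files (61 tested), 30 gamma and delta segments were found by symbol, of which 14 were tested. Named were the members, *Satb1*, defining genes, up to 4 called genes of each list and comparison with the largest log2 fold change, segments with at least 10 counts in a library, and the 5 tested genes with a mean of at least 1 CPM most like each member. Other names were chosen after their values were seen, and some defining genes are not reported here. Sequences and coordinates came from GENCODE M21, in which 46394 symbols matched. Alternatives were DESeq2 size factors, library totals, no filter, only the 4 libraries of a comparison, a replicate block, DESeq2 1.42.0, thinning to 4170126 counts, a GC and exon length offset (loess, span 0.3; limma 3.58.1) and leaving out each library.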

Additional observations from a re-analysis of the deposited data

Results flagged for a closer look

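*Satb1*, the targeted gene, stood out because its genotype difference changed between the days. The interaction log2 fold change was -1.34 (SE 0.21, edgeR FDR = 0.0269 with Benjamini-Hochberg adjustment over all genes): at day 0 both libraries labelled KO lay above both WT libraries, and at day 5 both lay below. The call was lost under 7 of 15 alternatives, 6 of which left out a library (without either WT library or KO replicate 1 of day 0, WT replicate 2 of day 5 or either KO library of day 5), and the seventh was the GC and exon length offset. Over all 15 the edgeR or DESeq2 FDR ranged from 3.90e-05 to 0.230. The log2 fold change stayed between -1.47 and -1.18 under these alternatives. The cause was not tested. Groups of 2 libraries are too small to look for a library far from the others of its group.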

How the results depend on the processing

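Of 316 values of the constant genes under 16 alternatives, 291 stayed within the spread between replicates. The sign of *Tcrg-C1* at day 5, KO against WT, turned under 5 of them (0.0086 to 0.23, the highest without WT replicate 1), and that of *Trdc* at day 0 under 1 (-0.04, without WT replicate 1). An offset for GC and exon length gave 5.37, 5.44 and 2.52 for *Tcrg-C1*, *Tcrg-C2* and *Tcrg-C4* with culture in WT and -1.67 for the *Tcrg-C2* interaction, and library totals gave 3.71 for *Tcrg-C2* with culture in KO. These scalings moved the median of all genes by culture to -0.18 and -0.19 (offset) and to -0.17 and -0.23 (totals), in WT and KO. With them 2614 genes rose and 3466 fell in WT and 2813 and 3674 in KO (offset), or 2670 and 3547 and 2765 and 3912 (totals), against 3112 and 2969 in WT and 3296 and 3029 in KO. The causes were not tested.

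Leaving out each library in turn gave, for KO against WT at day 0, 1.5 to 2.03 (*Tcrg-C1*), 2.69 to 3.03 (*Tcrg-C2*), 2.98 to 3.64 (*Tcrg-C4*) and -0.04 to 0.57 (*Trdc*). At day 5 it gave -0.19 to 0.23, 0.79 to 1.16, 1.29 to 1.98 and -0.82 to -0.10 in that order. With culture it gave 2.50 to 3.22 for *Tcrg-C4* and -1.28 to -0.55 for *Trdc* in WT, and 3.67 to 4.21 for *Tcrg-C1* and 3.72 to 4.07 for *Tcrg-C2* in KO. The interaction ranged from -2.06 to -1.49, -2.06 to -1.68, -2.07 to -1.32 and -1.07 to -0.35. A group left with 1 library was assumed to vary like the others.

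Of the listed genes, 5 were called at day 0, 5 at day 5 and 0 for the interaction by edgeR (8 of the 61 besides the segments at an unadjusted p under 0.05), and leaving out a library gave 1 to 7, 0 to 5 and 0 to 1. No filter gave 11, 8 and 2. At day 5 the 4 libraries alone gave 3 and the offset 3. For the interaction the offset gave 1 and DESeq2 3. Over all genes, 227 calls at day 0 became 36 and 49 without WT replicate 1 or 2 of day 0, 149 without KO replicate 2 of day 5 and 434 without a filter. The 205 calls at day 5 became 54 and 31 without KO replicate 1 or 2 of day 5, 85 without WT replicate 2 of day 5, 117 and 119 without WT replicate 1 or 2 of day 0, 117 with the offset, 351 by DESeq2 and 418 without a filter. The 20 of the interaction ranged from 0 (without WT replicate 1 of day 0, where 1395 had an unadjusted p under 0.05) to 41 (without WT replicate 1 of day 5), and became 13 with the offset, 135 by DESeq2 and 154 without a filter. Whether replicate numbers pair the samples is not settled. Correlations of deviations were 0.12 in WT and 0.23 in KO between the days, and from -0.07 to 0.004 across genotypes. The fit with a replicate block called 5, 5, 49 and 51 listed genes at day 0, at day 5 and with culture in WT and KO, and 0 for the interaction, where it called 29 over all genes. WT libraries at day 0 held 8 to 29 counts of each gamma gene, which limits every fold against them.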

Other observations

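Genes beside the receptor loci were followed as well. Of the listed neighbours of the gamma locus, 4 were tested, and none passed the threshold between the genotypes (lowest edgeR FDR 0.0759, *Gpr141* at day 5). With culture *Stard3nl*, a late endosomal protein, rose by 1.43 in WT (SE 0.16) and 1.37 in KO (SE 0.15), and *Gpr141*, an orphan receptor, had at most 1 count in any day 0 library, 24 and 25 in WT at day 5 and 74 and 74 in KO at day 5. *Elmo1* fell by 0.34 in KO (edgeR FDR = 0.0349) and was not called in WT (-0.25), and *Vps41* was not called (0.01 in WT and 0.03 in KO). Over all genes 48.3% were called with culture in WT and 50.2% in KO, against 2 and 3 of these 4, where *Gpr141* passed the filter on low counts through day 5 alone. Of 7 tested neighbours of the alpha and delta locus 2 were called in each genotype: *Abhd4* rose by 2.60 in WT and 2.14 in KO, and *Mettl3*, an RNA methyltransferase, fell by 0.75 in WT and 1.02 in KO.

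Among V segments that can join to alpha or delta, *Trav15-1-dv6-1* fell with culture in WT by 1.52 on the log2 scale (SE 0.46, edgeR FDR = 0.0158) and was not called in KO (-1.02, SE 0.41). *Trav14d-3-dv8* was called in neither genotype (-0.59 in WT and -0.69 in KO). *Trav14d-3-dv8* had 10.5 and 13.1 CPM in WT at day 0, 16.7 and 16.1 in KO at day 0, 5.97 and 9.84 in WT at day 5 and 6.41 and 14.0 in KO at day 5. *Trav15-1-dv6-1* had between 4.46 and 9.46 CPM at day 0 and between 1.76 and 3.96 at day 5. *Trav16d-dv11*, *Trav21-dv12*, *Trav4-4-dv10*, *Trav6-7-dv9*, *Trav15-2-dv6-2* and *Trav13-4-dv7* overlapped between the days in at least 1 genotype or were under 10 counts in most libraries, between 2 and 175 counts.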
